A study of Mus musculus with 6 samples.

Results

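V(D)J recombination assembles the variable part of T cell receptor and antibody genes, and 10 mouse genes whose products cut the DNA, diversify the ends and rejoin them are described here: Rag1, Rag2, Dntt, Xrcc5, Xrcc6, Prkdc, Dclre1c, Xrcc4, Lig4 and Nhej1. The genes were chosen by these roles, with earlier results of these data known, and were found by Ensembl gene ID with a check of position. Of the 10 genes, 7 had a measured level, among 11604 genes with a level in the whole data set.

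The RAG1 and RAG2 proteins form the nuclease that cuts at recombination signals and leaves hairpin-sealed coding ends. Ku, the ring made by the Xrcc6 (Ku70) and Xrcc5 (Ku80) products, then binds the ends and recruits DNA-PKcs (Prkdc), Artemis (Dclre1c) opens the hairpins, terminal deoxynucleotidyl transferase (Dntt) adds nucleotides without a template, and DNA ligase IV (Lig4) with XRCC4 and XLF (Nhej1) seals the join. Thymocytes at the DN3 stage use this machinery to build the T cell receptor beta chain, and RAG2 protein is known to be destroyed when cells enter S phase, so that cutting is kept to the resting part of the cycle.

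RNA was sequenced from DN3 thymocytes, sorted as lineage-negative cells with CD25 and without CD4, CD8 or CD44, from untreated mice aged 5 weeks. A group of 3 libraries came from WT mice and a group of 3 from Hspa9 cKO mice, which the series describes as deficient in GRP75, the product of Hspa9, an HSP70-type chaperone found in mitochondria. The question was what the loss of GRP75 changes in early thymocyte gene expression. No source used here gives the Cre driver, the stage at which the gene is lost or whether each library is a separate animal, so p-values measure the spread between libraries, which may be technical.

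The level of a gene is its FPKM, a fragment number per unit of transcript length and of library size, summed over the transcript starts listed for a gene. Levels were tested with limma on log2(FPKM + 1), and a gene was called when its Benjamini-Hochberg adjusted p over all 8739 genes tested was under 0.05. Of these genes, 729 (8.34%) were called higher and 506 (5.79%) lower in Hspa9 cKO, 1235 (14.1%) in all, with a median log2 change of 0.06. With libraries rescaled by trimmed mean log ratios these became 567 higher and 660 lower, and with median ratios 574 and 634. Libraries correlated at 0.954 to 0.963 within a group and 0.928 to 0.939 between groups. The Hspa9 level itself did not separate the groups (116.1 ± 9.27 FPKM in WT and 116.8 ± 6.91 in Hspa9 cKO, SD, n = 3), but transcripts that keep a block of its internal exons made up 100, 89.9 and 86.1% in the WT libraries and 24.5, 15.8 and 26.7% in the Hspa9 cKO libraries, so those exons separate the labelled groups without overlap (exact two-sided permutation p = 0.1, the smallest that 3 against 3 libraries can give). The log2 ratio of those exons changed by -5.90 and was not called (limma adjusted p = 0.222).

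Among the 10 genes, Rag2 transcripts were 1.89-fold higher in Hspa9 cKO, Nhej1 transcripts 1.52-fold higher, and Dntt transcripts fell to 0.83 of the WT level. These were the 3 calls, 2 higher and 1 lower, of 7 genes tested, where 14.1% of all genes tested were called. Xrcc4, Xrcc5, Xrcc6 and Prkdc were not called by their starts, and Rag1, Dclre1c and Lig4 had no level by the rule. The WT and Hspa9 cKO libraries did not overlap for 6 of the 7 genes, all but Prkdc, against 3406 (39.0%) of all genes tested. The median log2 change of the 7 genes was 0.21.

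**Figure D1:**
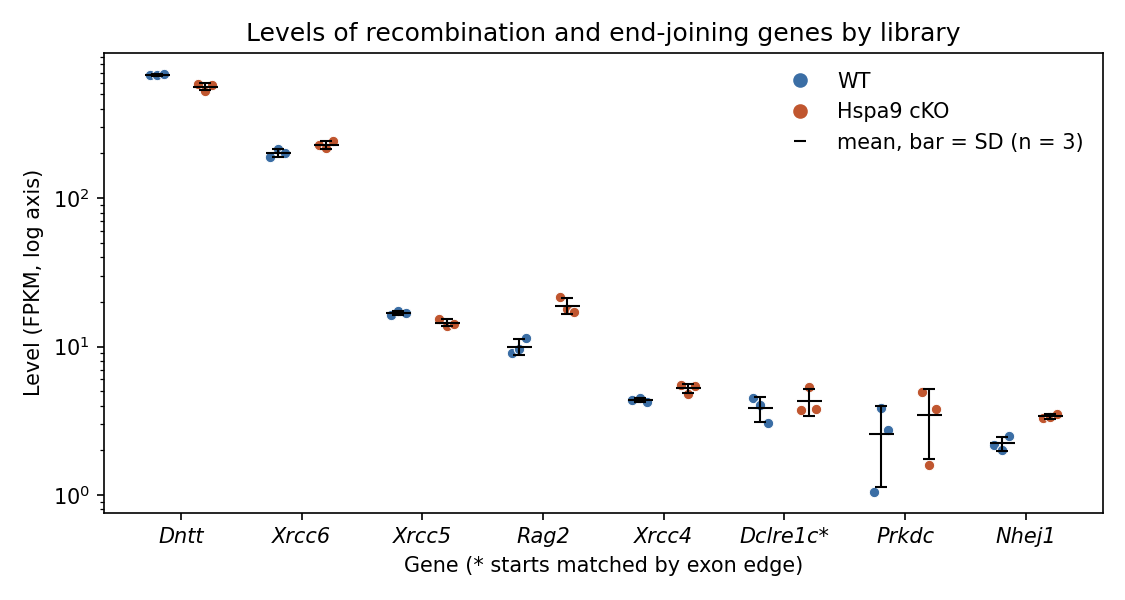
Level of each measured gene in FPKM on a log axis, with WT libraries in blue, Hspa9 cKO libraries in orange, and black bars for the mean and SD of 3 libraries. Dntt and Xrcc6 stand far above the other genes, the Rag2 points are clearly apart between the groups, and the Prkdc points mix. Dclre1c, marked with an asterisk, is measured by exon edges.

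In WT cells the order of the mean levels per length was Dntt (678.2 FPKM), Xrcc6 (201.3), Xrcc5 (16.8), Rag2 (9.997), Xrcc4 (4.37), Prkdc (2.56) and Nhej1 (2.23). Only the neighbours Prkdc and Nhej1 overlapped in their WT libraries. In Hspa9 cKO cells Rag2, at a mean of 18.9 FPKM, stood above Xrcc5 at 14.5 FPKM, so these neighbours changed places, with no overlap between their libraries in either group. The Hspa9 cKO libraries of Xrcc4 and Prkdc overlapped, as did those of Prkdc and Nhej1.

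**Figure D2:**
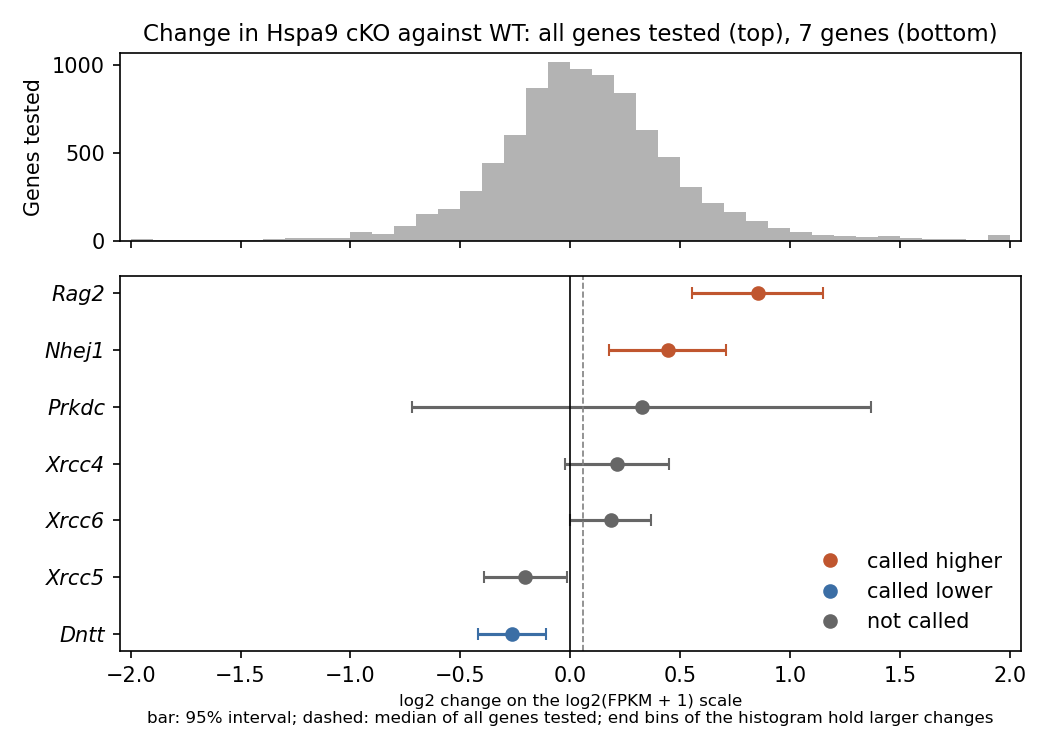
Log2 change in Hspa9 cKO against WT on the log2(FPKM + 1) scale, as a histogram of all 8739 genes tested above and with 95% intervals for 7 genes below. Rag2 lies in the right tail of the histogram at 0.85, the interval of Dntt lies below 0, and the interval of Prkdc spans -0.72 to 1.37.

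Rag2 (ENSMUSG00000032864, chr2:101624718-101632529 on the plus strand, mm10) encodes the RAG subunit that reads histone H3 trimethylated at lysine 4 and carries the signal for destruction in S phase. Its single listed start lay 6 bases downstream of the start that RefSeq gives, so the promoter below is the sequence in front of the transcripts counted here. It is shown from RefSeq (GRCm38.p6, chr2:101624462-101624761, plus strand, 250 bases before to 50 after the start), with matches to a short list of motifs in capitals.
Rag2 promoter: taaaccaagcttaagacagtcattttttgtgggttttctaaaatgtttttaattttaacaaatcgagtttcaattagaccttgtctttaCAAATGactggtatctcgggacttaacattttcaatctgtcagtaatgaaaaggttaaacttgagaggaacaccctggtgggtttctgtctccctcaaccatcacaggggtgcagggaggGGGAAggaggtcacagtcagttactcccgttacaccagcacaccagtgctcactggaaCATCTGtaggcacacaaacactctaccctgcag
The capitals mark, on either strand, the E-box CANNTG at -161 and 17 and the Ikaros-type GGGAA at -41, counted from the RefSeq start. Of 32851 RefSeq promoters of 300 bases, 72.3% hold CANNTG and 62.7% hold GGGAA, so both are common letters. No match was found for GTAAACA (Foxo), TGTGGT (Runx), AACNGCC (Myb) or GATAA (Gata), which 3.65, 16.8, 12.1 and 25.4% of promoters hold.

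The Rag2 level was 9.09, 9.56 and 11.3 FPKM in the WT libraries and 21.4, 18.01 and 17.1 FPKM in the Hspa9 cKO libraries. Every Hspa9 cKO library was above every WT library, and the lowest of them exceeded the highest WT library by more than the range within WT. The log2 change was 0.85 (SE 0.12, 95% interval 0.55 to 1.15, limma adjusted p = 0.0106), and 3.94% of all genes tested had a larger increase. The call held without any single library, with log2 changes from 0.76 to 0.94 and adjusted p from 0.0206 to 0.0432. In sorted cells, more cells that transcribe Rag2 and more Rag2 RNA per cell cannot be told apart. Transcript ends inside the gene were listed only for WT replicate 3 (3.02 FPKM) and Hspa9 cKO replicate 1 (3.27 FPKM), so the ends give no second estimate.

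Rag2 has an alternative exon between its first exon and the exon that holds the whole coding sequence, exon 2 of 63 nucleotides at chr2:101628137-101628199, which is noncoding. Transcripts with the exon were estimated at 6.33, 7.62 and 9.57 FPKM in WT and 18.8, 16.9 and 16.4 FPKM in Hspa9 cKO. Transcripts without it were at 2.77, 1.94 and 1.77 FPKM in WT and 2.68, 1.15 and 0.70 FPKM in Hspa9 cKO. The higher Rag2 level was therefore seen in the form with exon 2, whose groups did not overlap, while the form without it overlapped between the groups. The share with the exon was 69.6, 79.7 and 84.4% in WT and 87.5, 93.6 and 95.9% in Hspa9 cKO. All Hspa9 cKO shares were above all WT shares (exact permutation p = 0.1), as was so, in either direction, for 1070 (10.3%) of 10373 pairs of alternative events. The log2 ratio of the 2 forms changed by 1.46 (SE 0.39) but was not called (limma adjusted p = 0.369 over 10573 ratios, of which 20, or 0.189%, were called).

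**Figure D3:**
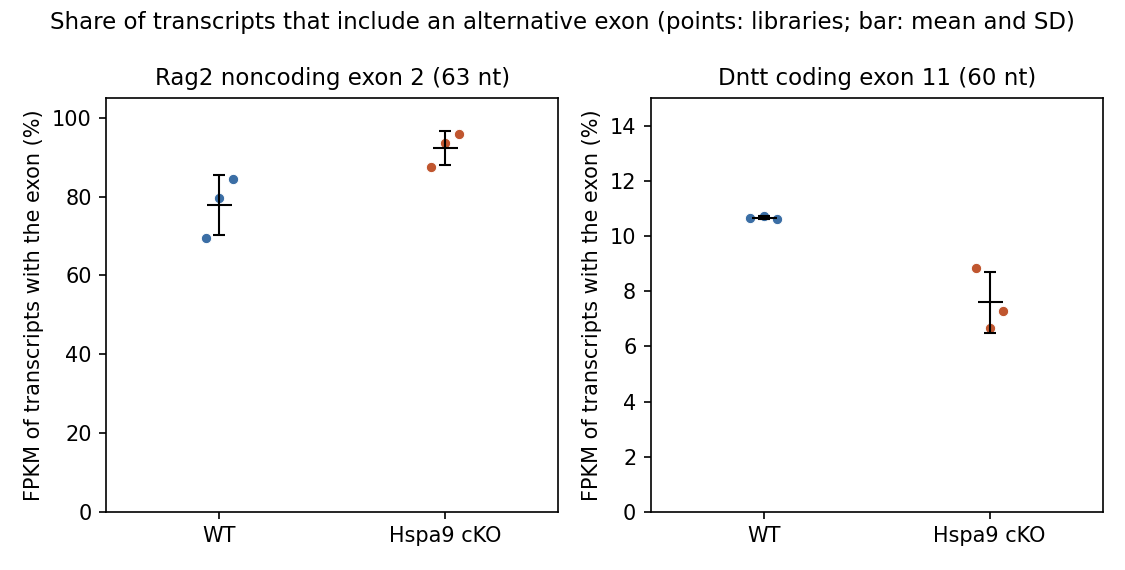
Share of a gene's transcript FPKM that includes an alternative exon, in percent, for the noncoding exon 2 of Rag2 and for exon 11 of Dntt, with each library as a point and the mean and SD of 3 libraries in black. Rag2 inclusion averages 77.9% in WT and 92.4% in Hspa9 cKO, and Dntt inclusion 10.7% in WT and 7.60% in Hspa9 cKO, with no overlap in either panel.

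Rag1 (ENSMUSG00000061311, chr2:101638282-101649501 on the minus strand) encodes the catalytic subunit, and it faces Rag2 across a short interval, the pair being transcribed toward each other. Its messenger RNA could not be read from the tables. All 4 starts listed under its ID lay outside the annotated gene or ran past its end, and they belong to B230118H07Rik, a longer gene on the same strand whose first exon sits at the Rag1 start. The start nearest to Rag1 was estimated at 1.14, 1.14 and 2.58 FPKM in WT and at 2.12, 3.27 and 1.80 FPKM in Hspa9 cKO. In every library it equalled, to within 4e-06 FPKM, the transcripts spliced from that exon over the whole Rag1 gene, so it holds no Rag1 message. Summed by ID alone the starts listed under Rag1 gave a log2 change of 0.16 (limma adjusted p = 0.719), with overlapping groups, which is a value of the neighbouring gene.

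**Figure D4:**
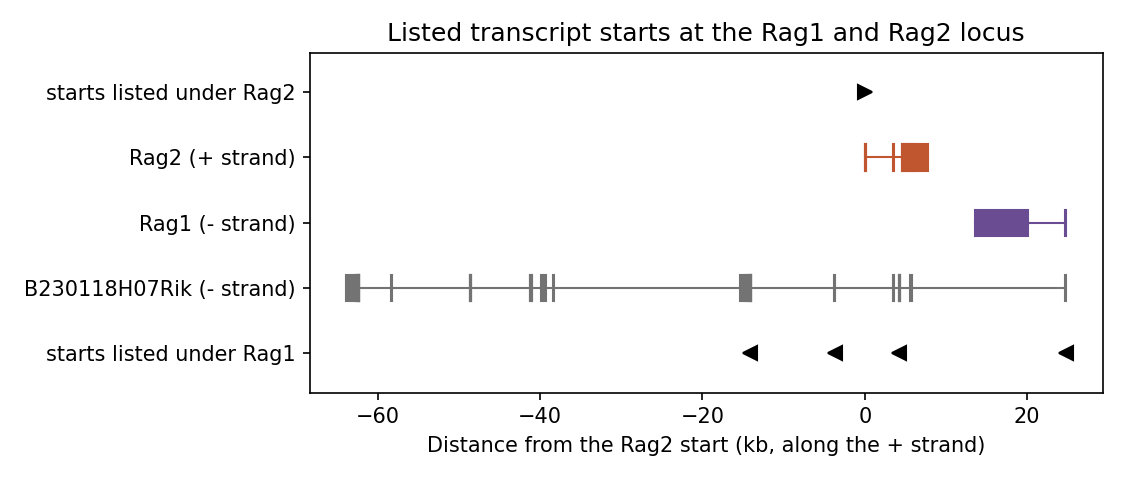
Map of the Rag1 and Rag2 locus by distance from the Rag2 start in kilobases, with annotated exons as boxes and listed transcript starts as triangles. The starts listed under Rag2 sit on its first exon, while the 4 starts listed under Rag1 sit on exons of B230118H07Rik, with none on the Rag1 coding exon.

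Dntt (ENSMUSG00000025014, chr19:41029275-41059525 on the plus strand) encodes terminal deoxynucleotidyl transferase, which makes junctions diverse by adding N nucleotides. It was the most abundant of the measured genes and ranked 37 by WT mean among all genes tested. Its single listed start coincides with the RefSeq start, so the promoter shown (GRCm38.p6, chr19:41029025-41029324, plus strand) is that of the transcripts counted.
Dntt promoter: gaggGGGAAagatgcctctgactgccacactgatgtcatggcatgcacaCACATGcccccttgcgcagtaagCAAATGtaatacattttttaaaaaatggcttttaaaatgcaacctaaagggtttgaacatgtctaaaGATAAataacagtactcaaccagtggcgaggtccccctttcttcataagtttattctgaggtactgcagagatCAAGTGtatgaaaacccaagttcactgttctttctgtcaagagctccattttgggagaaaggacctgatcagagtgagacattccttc
The capitals mark CANNTG at -201, -178 and -38, GGGAA at -246 and GATAA at -111. The Foxo, Runx and Myb letters had no match in either window, and GATAA was found in the Dntt window alone.

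The Dntt level was 676.0, 671.1 and 687.4 FPKM in the WT libraries and 590.3, 528.7 and 575.6 FPKM in the Hspa9 cKO libraries. All Hspa9 cKO libraries were below all WT libraries, and the WT libraries lay close together. Dntt fell by 0.26 on the log2 scale (SE 0.06, 95% interval -0.42 to -0.11, limma adjusted p = 0.0425). Its summed transcript ends equalled its start in every library, so they give no second estimate. The call was lost without any single library of either group, with log2 changes from -0.30 to -0.22 and adjusted p from 0.0758 to 0.123. It was also lost when starts were taken by gene ID alone (log2 change -0.25, adjusted p = 0.0530), a setting that adds the minus-strand starts listed under the Dntt ID.

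Mouse TdT exists in a short form, the main enzyme of N addition, and in a longer form with an added coding exon, which is exon 11 of 12 in the transcript Dntt-201 (60 nucleotides, chr19:41058567-41058626). The sequences below, read from the GENCODE M21 transcript on mm10, show the junction with and without the exon, whose letters are in capitals, with 30 bases of the exon on either side in lower case.
Dntt with the exon: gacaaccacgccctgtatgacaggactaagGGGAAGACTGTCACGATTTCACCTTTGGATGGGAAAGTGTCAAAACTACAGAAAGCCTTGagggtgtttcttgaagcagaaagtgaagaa
Dntt without the exon: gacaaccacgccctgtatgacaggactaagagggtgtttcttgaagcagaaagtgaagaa
Transcripts with the exon were estimated at 72.0, 71.9 and 73.0 FPKM in WT and 52.1, 35.3 and 42.0 FPKM in Hspa9 cKO. Transcripts without it were at 603.9, 599.0 and 614.3 FPKM in WT and 538.1, 493.3 and 533.5 FPKM in Hspa9 cKO. Both forms were lower in all Hspa9 cKO libraries than in all WT libraries, and the short form made up most Dntt RNA in both groups. The share with the exon was 10.6, 10.7 and 10.6% in WT and 8.82, 6.67 and 7.29% in Hspa9 cKO, again with no overlap (exact permutation p = 0.1). Of 10373 pairs of alternative events, 10.3% had no overlap in either direction. The log2 ratio of the forms changed by -0.53 (SE 0.23) and was not called (limma adjusted p = 0.558).

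Neither subunit of Ku was called. Xrcc5 (ENSMUSG00000026187, chr1:72307421-72394952, plus strand), which encodes Ku80, was at 16.3, 17.5 and 16.7 FPKM in WT and at 15.4, 13.9 and 14.2 FPKM in Hspa9 cKO. All Hspa9 cKO libraries were lower, by a log2 change of -0.20 (SE 0.08, 95% interval -0.39 to -0.02, limma adjusted p = 0.134). Its ends equalled its starts in every library, so they give no second estimate.

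Xrcc6 (ENSMUSG00000022471, chr15:81987835-82040085, plus strand), which encodes Ku70, was at 189.5, 212.9 and 201.5 FPKM in WT and at 227.0, 216.3 and 243.0 FPKM in Hspa9 cKO. The groups did not overlap, with Hspa9 cKO higher by 0.18 on the log2 scale (SE 0.08, 95% interval -0.00 to 0.37, limma adjusted p = 0.161). Its summed ends were lower than its summed starts, at 133.3, 134.6 and 146.3 FPKM in WT and 166.9, 156.5 and 155.4 FPKM in Hspa9 cKO, with a log2 change of 0.21 and an adjusted p of 0.0833 in the limma test of ends. A start on an internal exon alone held 136.1, 137.6 and 146.1 FPKM in WT and 166.8, 156.3 and 155.2 FPKM in Hspa9 cKO, so the summed starts may count pieces of the same transcripts. The Ku70 RNA exceeded the Ku80 RNA by either sum, in every library. Of its alternative exons, that of 113 nucleotides was included in 90.4, 93.2 and 90.5% in WT and in 90.5, 91.3 and 93.8% in Hspa9 cKO, with overlap. That of 130 nucleotides was included in 99.88, 99.87 and 99.83% in WT and in 99.91, 99.91 and 99.91% in Hspa9 cKO. These groups did not overlap (exact permutation p = 0.1), as was so for 10.3% of all 10373 pairs of alternative events. The log2 ratio of the forms, with a change of 0.27 (SE 0.21), was not called (limma adjusted p = 0.692).

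Prkdc (ENSMUSG00000022672, chr16:15637866-15842235, plus strand) encodes DNA-PKcs, the kinase that Ku brings to the ends. Its starts were at 1.05, 3.87 and 2.75 FPKM in WT and at 4.95, 1.59 and 3.78 FPKM in Hspa9 cKO, so the groups overlapped and the spread within each was wide. The log2 change of starts was 0.33 (SE 0.43, 95% interval -0.72 to 1.37, limma adjusted p = 0.651), and it became -0.03 without WT replicate 1. Its ends gave another picture, at 2.40, 3.87 and 2.75 FPKM in WT and 5.51, 5.60 and 5.88 FPKM in Hspa9 cKO, with every Hspa9 cKO library above every WT library. By ends Prkdc was called higher, with a log2 change of 0.75 (SE 0.15, limma adjusted p = 0.0296). In that fit, which used starts for genes without an end inside the gene, 14.4% of 7612 genes were called. Starts and ends were equal in WT replicates 2 and 3, and ends exceeded starts in the other 4 libraries.

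Dclre1c (ENSMUSG00000026648, chr2:3424131-3464130, plus strand) encodes Artemis, the nuclease that opens the hairpins. The tables list no event under its ID, and its starts appear under Gm13184, an annotated gene downstream on the same strand. Matched by exon edges, Dclre1c was at 4.47, 4.05 and 3.04 FPKM in WT and at 3.73, 5.33 and 3.81 FPKM in Hspa9 cKO. The groups overlapped, with a log2 change of 0.12 (SE 0.18, 95% interval -0.31 to 0.56, limma adjusted p = 0.683 in the fit of all genes by exon edges).

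Of the ligation complex, Xrcc4 and Nhej1 were measured and Lig4 was not. Xrcc4 (ENSMUSG00000021615, chr13:89774027-90089608, minus strand), the scaffold of ligase IV, was at 4.36, 4.52 and 4.24 FPKM in WT and at 5.47, 4.80 and 5.44 FPKM in Hspa9 cKO. All Hspa9 cKO libraries were above all WT libraries, by a log2 change of 0.21 (SE 0.10, 95% interval -0.02 to 0.45, limma adjusted p = 0.195), which was not called.

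Nhej1 (ENSMUSG00000026162, chr1:74967139-75125200, minus strand) encodes XLF, the XRCC4-like factor that bridges broken ends. It was at 2.18, 2.02 and 2.48 FPKM in WT and at 3.28, 3.34 and 3.52 FPKM in Hspa9 cKO, with no overlap. The log2 change was 0.44 (SE 0.11, 95% interval 0.18 to 0.71, limma adjusted p = 0.0474). The call was lost without any single library of either group (adjusted p 0.0644 to 0.138), under trimmed means of log ratios (log2 change 0.39, adjusted p = 0.0658), under median ratios (0.40, adjusted p = 0.0630) and by exon edges (0.44, adjusted p = 0.0508). Its single listed start lay 78587 bases from the RefSeq start, so no promoter is shown.

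Lig4 (ENSMUSG00000049717, chr8:9969049-9977686, minus strand), the ligase itself, has no event listed under its ID, and no start or end matched its exon edges. Other kinds of event at its position under another ID were not searched. Its absence says nothing of its expression, since the tables list only some genes.

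Genes around the core machinery were read from lists of related factors. Beside the counts called in each list, 8.34% of all genes tested were called higher and 5.79% lower. Other end-joining factors, which trim, polish or fill DNA ends, had 8 of 9 genes tested, with 1 called higher, 0 lower and a median log2 change of 0.37, against 0.06 for all genes. The called gene was Poll, which encodes the gap-filling polymerase lambda, at 2.10 ± 0.19 FPKM in WT and 4.26 ± 1.07 in Hspa9 cKO (SD, n = 3, log2 change 0.74, limma adjusted p = 0.0441).

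Break sensing factors, which detect RAG breaks and hold the ends, had 11 of 13 genes tested, with 0 higher, 1 lower and a median of -0.16. The gene that fell was Msh6, a mismatch sensor, from 47.9 ± 0.90 to 39.5 ± 0.82 FPKM (SD, n = 3, log2 change -0.27, limma adjusted p = 0.0365). Atm, the kinase that responds to RAG breaks, had a log2 change of 0.12 (95% interval -0.46 to 0.70, adjusted p = 0.773).

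Alternative end joining, the backup route that uses short homologies, had 10 of 11 genes tested, with 1 higher, 2 lower and a median of -0.12. Lig1, the replicative DNA ligase, fell by 0.43 (limma adjusted p = 0.0339) and Parp1, the poly(ADP-ribose) polymerase, fell by 0.30 (adjusted p = 0.0492). Rad52, which anneals single strands, rose by 0.48 (adjusted p = 0.0441).

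RAG cofactors and genes that control RAG2 protein over the cycle had 9 of 10 genes tested, with 0 higher, 2 lower and a median of -0.35. Ccna2, the cyclin A2 that partners CDK2 in S phase, fell from 39.7 ± 4.04 to 17.7 ± 0.78 FPKM (SD, n = 3, log2 change -1.12, limma adjusted p = 0.00231). Kpna2, an importin that binds RAG1, fell from 46.3 ± 8.52 to 17.1 ± 1.87 FPKM (log2 change -1.37, adjusted p = 0.00610). Skp2, the ubiquitin ligase subunit that marks RAG2 for destruction, was not called (log2 change -0.66, 95% interval -2.09 to 0.77), nor was Cdkn1b (p27) at -0.02. The Skp2 level was 2.29, 3.88 and 3.39 FPKM in WT and 3.02, 0 and 3.45 FPKM in Hspa9 cKO. Its change rests on Hspa9 cKO replicate 2, where no start was listed.

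Transcription factors known to act on Rag1 and Rag2 or on Dntt had 17 of 20 genes tested, with 1 higher, 0 lower and a median of 0.04. Gfi1, a zinc finger repressor of early lymphoid cells, rose from 33.8 ± 4.37 to 53.9 ± 8.52 FPKM (SD, n = 3, log2 change 0.66, limma adjusted p = 0.0370). Foxo1, a known activator of Rag transcription, had a log2 change of 0.04 (95% interval -0.25 to 0.34) and Ikzf1 (Ikaros), which binds the Dntt promoter, one of -0.00 (-0.33 to 0.33).

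**Figure D5:**
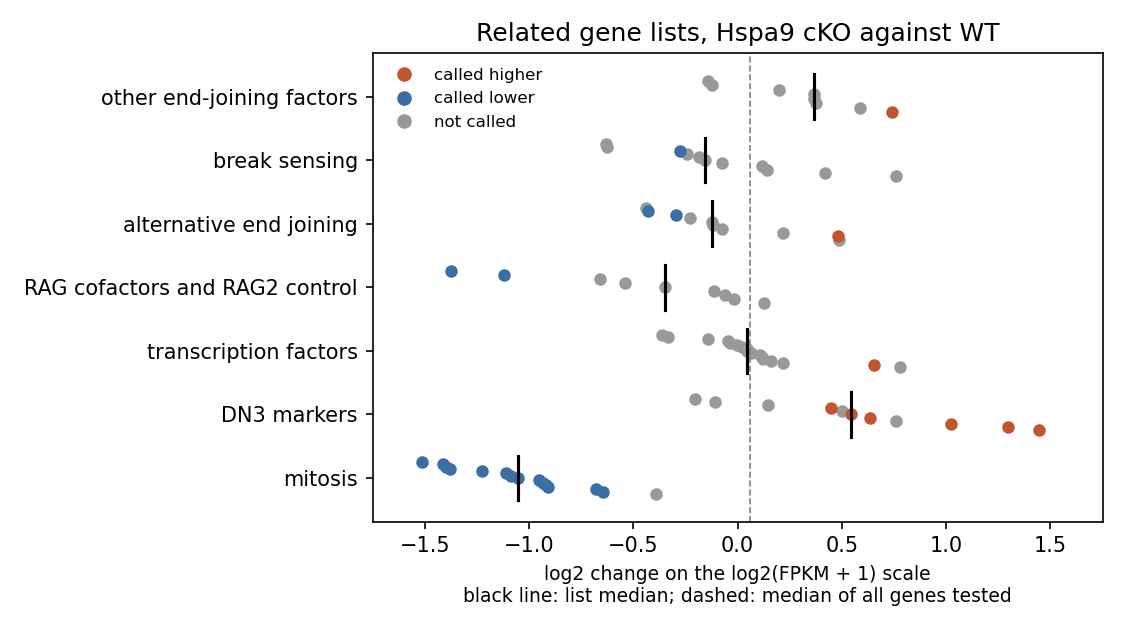
Log2 change in Hspa9 cKO against WT for each tested gene of 7 lists, on the log2(FPKM + 1) scale, with black lines for list medians and a dashed line for the median of all genes tested. The transcription factors centre near the dashed line, the mitosis genes lie to the left with a median of -1.05, and the DN3 markers lie mostly to the right with a median of 0.54.

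Genes of mitosis and of the DN3 stage moved beside these results. Of 15 mitosis genes, 14 were called lower and 0 higher, with a median log2 change of -1.05 and a summed level of 462 to 499 FPKM in WT and 219 to 225 FPKM in Hspa9 cKO. Ube2c, which loads ubiquitin onto mitotic substrates, fell by 1.41 (limma adjusted p = 0.000587), and Plk1, the mitotic kinase, fell by 1.22 (adjusted p = 0.000937).

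Of 12 DN3 markers, 11 were tested and 6 were called higher with 0 lower, at a median of 0.54, and their summed level was 2057 to 2606 FPKM in WT and 2874 to 3324 FPKM in Hspa9 cKO. Il2ra, which encodes the CD25 used in the sort, rose by 1.30 (limma adjusted p = 0.000476), and Dtx1, a Notch target, rose by 1.45 (adjusted p = 0.000969). Of 7 markers of the stages after beta selection, 6 were tested and 2 were called lower, among them Cd8b1 (log2 change -1.10), and the sum was 25.6 to 27.4 FPKM in WT and 18.04 to 20.6 FPKM in Hspa9 cKO. Rag2 and Nhej1 were thus higher, and Dntt lower, in libraries with more RNA of DN3 markers and less of mitosis genes. The part of either difference in the Rag2, Nhej1 and Dntt results was not tested.

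Markers of other cells were read for the same libraries. The B cell markers, which matter because B lineage cells also use RAG and Ku, summed to 9.75 to 12.7 FPKM in WT and 15.5 to 18.8 FPKM in Hspa9 cKO, nearly all of it Cd79b, the only 1 of the 8 that was tested and which was called higher (log2 change 0.54). Cd79a, Ebf1, Ms4a1 and Pax5 had no level. Myeloid and dendritic markers summed to 8.93 to 15.3 FPKM in WT and 13.5 to 15.5 FPKM in Hspa9 cKO, with Adgre1, Cd14, Itgam and Siglech without a level and 0 of the 1 tested called. Nearly all of that sum was Lyz2, at a mean of 12.4 FPKM in WT and 14.3 FPKM in Hspa9 cKO. Markers of DN1 and DN2 cells summed to 8.55 to 11.1 and 7.76 to 10.8 FPKM, with 0 of 2 tested called. Those of NK, innate lymphoid and gamma-delta cells summed to 234.0 to 247.8 and 234.8 to 239.9 FPKM, with Nkg7 called higher and Gzma and Id2 lower. Most of that sum was Gzma, whose mean fell from 177.5 FPKM in WT to 145.0 FPKM in Hspa9 cKO. The mean of Nkg7 rose from 31.2 to 59.1 FPKM. Stroma and erythroid markers summed to 48.0 to 51.9 and 62.5 to 69.6 FPKM, with Epcam called higher of 2 tested. Their part in the results was not tested.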

How the data were processed

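Messenger RNA of DN3 thymocytes was sequenced, with 3 WT and 3 Hspa9 cKO libraries grouped by sample title. Per the labels' protocols, poly(A) selection or ribosomal RNA removal preceded random-primed cDNA synthesis. The submitters' processing notes name cutadapt 1.9.1 and mm10, and the aligner, assembler and any batch are not given in the sources read. The deposited values are FPKM of 20 types of transcript event (starts, ends, skipped exons, retained introns), per the file headers. There are no counts, so depth is unknown and no counting interval can be given, and events not listed were set to 0, which can be a failed estimate. An FPKM of an event depends on how reads were divided among isoforms.

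Levels were sums of the FPKM of starts that carry the gene's Ensembl ID and lie inside the gene on its strand in GENCODE M21 (ends for 565 genes without a start). Of 27390 starts, 23550 (86.0%) passed, with 88.5% of the FPKM. Genes that reached 1 FPKM in 3 or more libraries entered the test with limma 3.58.1 (R 4.3.3) on log2(FPKM + 1), trended and robust, two-sided, with Benjamini-Hochberg adjustment, so fold changes of low genes are understated on that scale. Log2((inclusion + 1)/(exclusion + 1)) of event pairs averaging 5 FPKM or more in total was tested likewise, but without the trend. Single values had an exact permutation test (scipy 1.17.1). Both fits were tested on simulated data. Alternatives were a replicate block, other filters, pseudocount, scalings, ends for starts, other rules for placing events, and leaving out each library. The fit by ends kept starts for genes without an end inside the gene.

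The members and lists were chosen with earlier results of these data known. Named genes are all members, Hspa9, and per list and direction the 2 called genes of lowest adjusted p. Some genes are not reported here. Atm, Skp2, Cdkn1b, Foxo1 and Ikzf1 were added after their values were seen. Of the 10 members, 9 have a promoter in the RefSeq table, and only those of Rag2 and Dntt are printed.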

Additional observations from a re-analysis of the deposited data

Results flagged for a closer look

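Starts on the minus strand that the tables list under the Dntt gene ID, which the position check leaves out of the Dntt level and which entered only the setting by gene ID alone, were at 3.61, 2.53 and 3.09 FPKM in WT and 5.66, 6.32 and 9.87 FPKM in Hspa9 cKO. The means were 3.08 ± 0.54 and 7.28 ± 2.26 FPKM (SD, n = 3), and all Hspa9 cKO libraries were above all WT libraries (exact two-sided permutation p = 0.1, the smallest possible). These starts were flagged because all Hspa9 cKO libraries were above all WT libraries, in data outside the main measurement. The lack of overlap and its permutation p therefore restate the rule of choice and are no test. Of all genes tested, 39.0% had groups that did not overlap, in either direction. The 6 listed starts differed between libraries, and some split by group. The start at chr19:41031922-41032142 was listed in every WT library and in no Hspa9 cKO library. Those at chr19:41008354-41011700 and chr19:41030986-41031401 were listed in every Hspa9 cKO library and in no WT library. Splicing from position 41030986 was still listed in WT replicate 1 (0.56 and 0.54 FPKM) and WT replicate 3 (0.69 FPKM). At that position the split is therefore one of listed starts, not of all transcripts. The sums of the groups therefore do not rest on the same starts, and no single start gives the comparison. Dntt itself, on the plus strand, was lower in Hspa9 cKO.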

How the results depend on the processing

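Rag2 kept its call in all settings that gave it a value except the replicate block (log2 change 0.85, adjusted p = 0.0652), and ends gave it none. Replicate numbers did not pair the libraries: deviations from the group means correlated at 0.02, -0.02 and -0.01, and 1 of 3 Hspa9 cKO libraries correlated best with its own number. With the block, 138 genes were called higher and 76 lower, 0 members either way (Dntt -0.26, adjusted p = 0.110; Nhej1 0.44, adjusted p = 0.119) and 0 splicing ratios. Members called higher numbered 1 with a filter at 5 FPKM (which leaves out Xrcc4, Prkdc and Nhej1), 1 under trimmed means of log ratios (Nhej1 0.39), 1 under median ratios (Nhej1 0.40) and 1 by exon edges (Nhej1 0.44); members called lower numbered 0 by gene ID alone (Dntt -0.25). Ends called Prkdc higher (0.75). Splicing ratios called, 20 above, became 72 with a pseudocount of 0.1 and 10 with a minimum of 1 FPKM. The cause of these shifts was not tested.

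Without each library in turn, 206 to 477 genes were called higher and 189 to 316 lower, the fewest without Hspa9 cKO replicate 3 and the most without WT replicate 2; 1 member was called higher in each case and 0 lower, and 0 to 12 splicing ratios. Log2 changes ranged over 0.76 to 0.94 for Rag2, -0.30 to -0.22 for Dntt, 0.19 to 0.27 for Xrcc4, -0.25 to -0.18 for Xrcc5, 0.14 to 0.22 for Xrcc6, -0.0281 (without WT replicate 1) to 0.67 for Prkdc and 0.40 to 0.50 for Nhej1. Log2 ratios of exon inclusion ranged over 1.20 to 1.72 for Rag2, -0.65 to -0.44 for Dntt, -0.0920 (without Hspa9 cKO replicate 3) to 0.28 for the 113-nucleotide exon of Xrcc6 and 0.24 to 0.28 for its 130-nucleotide exon. None of these fits has a count behind it, so what depth limits cannot be stated.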
